A study of Mus musculus with 31 samples.

Results

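Hotspots of meiotic double-strand breaks in PWDfXMOLm, the F1 hybrid of a PWD/PhJ mother and a MOLF/EiJ father, were compared with those of both parental strains. The hybrid list held 15858 hotspots, of which 14912 lay on the 19 autosomes and were used here, out of 414683 hotspots in all 26 lists of the series. The parental lists held 13501 autosomal hotspots in PWD (PWD/PhJ) and 14585 in MOL (MOLF/EiJ), and the Prdm9-/- list (B6;129P2-Prdm9<tm1Ymat>/J) held 29991. Hotspots of any 2 lists were matched when their centres lay under 400 bp apart. All breaks were mapped in testis with an antibody to DMC1, from 1 library per genotype, so no value for a single cross has a replicate error. The series covers 6 inbred strains, 19 F1 crosses and the knockout. In the name of a cross, f follows the mother's strain and m the father's, and the other strains crossed were B6 (C57Bl/6J), C3H (C3H/HeJ), CAST (CAST/EiJ) and 13R (B10.F-H2pb1/(13R)J). The wild-derived CAST/EiJ descends from Mus musculus castaneus. Hotspots of inbred CAST and inbred B6 were compared as well, and a cross of a MOL mother with a PWD father was not analysed here. The sources used here do not give the ages or the number of the animals. Read depth is also unknown, and the intervals given are exact Clopper-Pearson intervals at the 95% level that cover counting error only. The parental and hybrid genotypes carry their own Prdm9 alleles, whereas the knockout carries a disrupted gene on another strain background. The knockout therefore differs from the hybrid in strain as well as in Prdm9.

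PRDM9 is a zinc-finger protein of early meiosis that binds DNA and methylates histone H3 around its binding sites. Its zinc-finger array differs between mouse strains, so strains with different alleles break their chromosomes at different places, and an F1 hybrid carries both parental alleles. At a break, the ends are resected and the recombinase DMC1 coats the single strands, and these are what the assay sequences. Without PRDM9, breaks form largely at promoters and other sites of open chromatin. PWD/PhJ descends from Mus musculus musculus, and MOLF/EiJ from Mus musculus molossinus of Japan.

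Promoters at 5 of the strongest knockout hotspots that were in neither parental list are printed to show the kind of sequence used without PRDM9. Each runs from 250 bases before to 50 after a RefSeq transcription start in GRCm38.p6, the primary assembly of mm10, on the strand of the gene, and capitals mark each CG dinucleotide. Cenpl (chr1:161070517-161070816, plus strand, a centromere protein), Slc35d1 (chr4:103215127-103215426, minus strand, a nucleotide sugar transporter) and Rab28 (chr5:41708130-41708429, minus strand, a small GTPase) lay at knockout hotspots that were also hybrid hotspots. Kbtbd8 (chr6:95117630-95117929, plus strand) and Acbd5 (chr2:23068822-23069121, plus strand, an acyl-CoA binding protein of peroxisomes) lay at knockout hotspots not found in the hybrid.
Cenpl: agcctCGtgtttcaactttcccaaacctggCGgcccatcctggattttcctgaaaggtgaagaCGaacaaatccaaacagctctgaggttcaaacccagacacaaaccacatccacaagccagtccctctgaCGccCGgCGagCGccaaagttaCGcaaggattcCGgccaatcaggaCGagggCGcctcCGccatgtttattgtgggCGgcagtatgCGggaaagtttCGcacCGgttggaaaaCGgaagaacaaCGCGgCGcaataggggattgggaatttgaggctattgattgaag
Slc35d1: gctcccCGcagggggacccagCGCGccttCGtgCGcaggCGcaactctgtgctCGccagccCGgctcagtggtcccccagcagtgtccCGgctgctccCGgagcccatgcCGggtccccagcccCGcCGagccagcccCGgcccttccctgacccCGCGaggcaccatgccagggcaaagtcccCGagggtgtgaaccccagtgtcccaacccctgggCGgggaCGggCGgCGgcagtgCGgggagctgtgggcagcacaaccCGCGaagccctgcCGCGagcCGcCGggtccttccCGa
Rab28: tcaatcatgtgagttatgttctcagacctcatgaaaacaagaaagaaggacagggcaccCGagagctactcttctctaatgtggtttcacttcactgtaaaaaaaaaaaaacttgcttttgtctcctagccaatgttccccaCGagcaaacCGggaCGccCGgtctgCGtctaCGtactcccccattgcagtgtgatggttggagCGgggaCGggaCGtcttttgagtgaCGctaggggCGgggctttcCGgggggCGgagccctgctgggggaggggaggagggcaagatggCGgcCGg
Kbtbd8: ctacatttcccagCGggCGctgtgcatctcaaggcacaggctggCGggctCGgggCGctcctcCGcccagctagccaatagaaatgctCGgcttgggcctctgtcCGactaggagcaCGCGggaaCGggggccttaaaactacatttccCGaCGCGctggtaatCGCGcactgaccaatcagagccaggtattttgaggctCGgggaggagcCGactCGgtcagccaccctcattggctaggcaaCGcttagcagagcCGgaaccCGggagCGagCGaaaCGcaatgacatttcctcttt
Acbd5: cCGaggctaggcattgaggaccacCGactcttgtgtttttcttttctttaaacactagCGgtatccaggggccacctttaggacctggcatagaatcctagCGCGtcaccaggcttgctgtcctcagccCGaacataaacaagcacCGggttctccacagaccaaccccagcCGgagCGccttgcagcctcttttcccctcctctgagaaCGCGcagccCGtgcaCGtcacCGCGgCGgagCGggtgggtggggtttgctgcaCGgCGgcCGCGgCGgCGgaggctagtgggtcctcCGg

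These 5 promoters held 16 to 29 CG dinucleotides, against a median of 7 over 31396 autosomal promoters of the table. The median was 21 over promoters within 1000 bp of any knockout hotspot, and 26 for the strongest 1000 knockout hotspots. The knockout hotspots ranked 7 at Cenpl, 11 at Slc35d1, 20 at Rab28, 10 at Kbtbd8 and 17 at Acbd5 by strength in the knockout. In the hybrid the hotspots at Cenpl, Slc35d1 and Rab28 were among the weakest, at ranks 14021, 14852 and 14621 of 14912. The letters GGGCGG, searched on both strands, occurred in 36.0% of all these promoters. They occurred in 63.7% of the promoters within 1000 bp of a knockout hotspot, and in 67.6% (169 of 250) of those within 1000 bp of a hybrid hotspot at a knockout site. Of the promoters near other hybrid hotspots, 34.3% held them (121 of 353). The letters CCAAT occurred in 37.3% of all promoters and in 37.1% of those within 1000 bp of a knockout hotspot, so near the same share. They occurred in 44.4% of those at hybrid hotspots on knockout sites (111 of 250) and in 33.1% near other hybrid hotspots. A match is a description of the letters and not a site of binding.

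Nearly all hotspots that the parents had in common were found in the hybrid, and less than 50% of the hotspots found in 1 parent alone. The parents shared 1750 hotspots, which were 13.0% of the PWD list and 12.0% of the MOL list. Of these, 1684 were found in the hybrid, or 96.2% (95.2 to 97.1), and 66 were not. Counted from the MOL list, 1679 of the 1750 were found (95.9%). Of 11751 PWD-only hotspots the hybrid had 4362, or 37.1% (36.2 to 38.0). Of 12835 MOL-only hotspots it had 6172, or 48.1% (47.2 to 49.0). Over the whole parental lists, 44.8% of PWD hotspots and 53.8% of MOL hotspots were found. Shared hotspots lay far above these levels, and PWD-only and MOL-only hotspots each below that of their own list. Of summed parental strength, the hybrid's hotspots covered 98.4% in the shared class, 58.0% in the PWD-only and 72.9% in the MOL-only class.

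Hotspots that were not found were mostly the weak ones of the parent. Strength was read as a percentile within its own list, since the deposited scores are not comparable between lists. PWD-only hotspots found in the hybrid had a median percentile of 75.3 in PWD, against 34.8 for those not found. For MOL-only hotspots the medians were 74.7 and 29.4 in MOL. Shared hotspots were somewhat stronger than the list as a whole in PWD, with a median percentile of 60.2, and close to its middle in MOL, at 51.9. The found hotspots were also wider, with a median of 2462 against 1844 bp for PWD-only and of 3048 against 1634 bp for MOL-only hotspots.

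At equal strength in the list counted, shared hotspots were found more often than single-parent hotspots in each of the 10 strength deciles of both lists. The strength of a shared hotspot in the other parent was not matched. Of the shared hotspots below the PWD median, 331 lay above the MOL median and 97.0% of these were found. Another 358 lay below both medians and were found at 88.3%. In the weakest decile of PWD the hybrid had 80.8% of shared hotspots (63 of 78) and 9.51% of PWD-only hotspots (121 of 1272). In the strongest PWD decile it had 100% of the shared (255 of 255) and 92.0% of the PWD-only hotspots. In MOL, shared hotspots went from 86.1% in the weakest decile to 99.5% in the strongest, and MOL-only hotspots from 11.1% to 98.8%. Weighted to the strengths of the shared hotspots, single-parent recovery came to 45.3% for PWD and 50.2% for MOL. That is 50.9 and 45.8 percentage points below shared recovery. Among the strongest 1000 hotspots of each parent, all 185 shared and 764 of 815 PWD-only hotspots of PWD were found (93.7%). In MOL the counts were 137 of 138 shared and 854 of 862 MOL-only hotspots (99.1%).

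**Figure D1:**
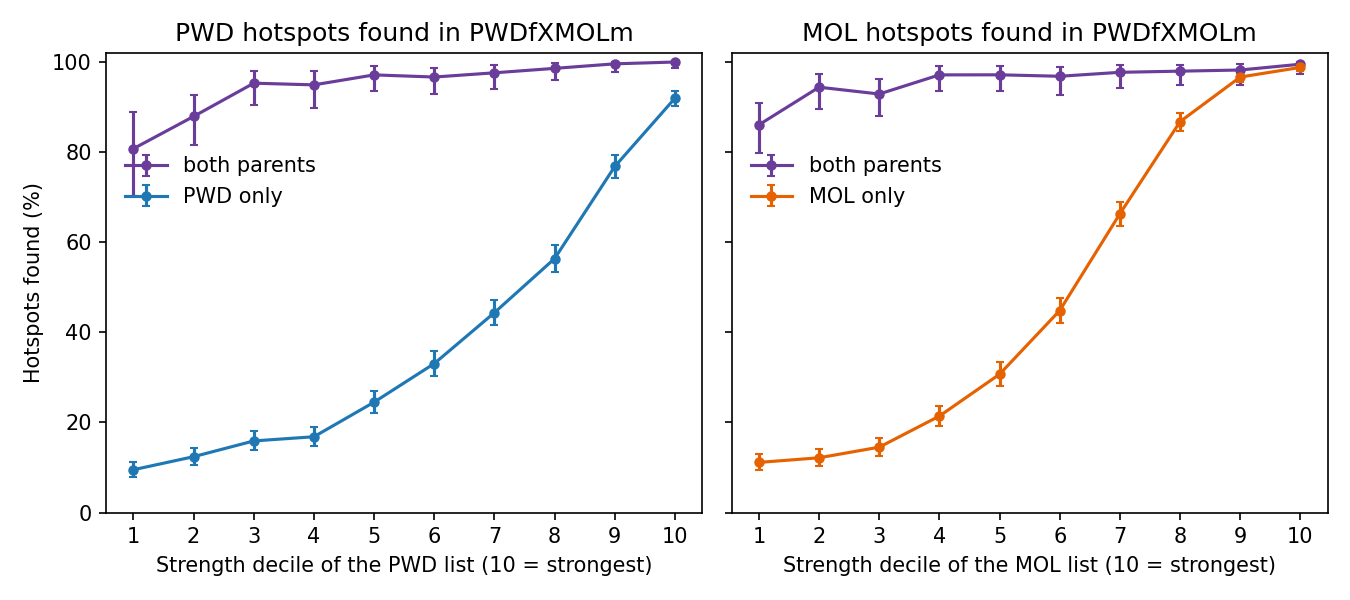
Share of parental hotspots found in PWDfXMOLm (y axis, percent, with 95% Clopper-Pearson intervals) by strength decile within the parental list (x axis, 1 is the weakest), for shared and single-parent hotspots of PWD and MOL. Shared hotspots lie above single-parent hotspots in all 10 deciles of both lists, and the curves come together in the strongest decile. The strength of shared hotspots in the other parent is not matched.

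Of the 3 parental classes, the shared hotspots had the highest median strength in the hybrid. Their median hybrid percentile was 71.2 (quartiles 50.9 and 87.0), against 41.1 (20.6 and 65.7) for PWD-only and 52.4 (28.0 and 76.5) for MOL-only hotspots that were found. The percentile of a found hotspot was higher in the hybrid than in the parent for 18.4% of PWD-only and 18.2% of MOL-only hotspots. For shared hotspots it was higher than in PWD for 54.9% and higher than in MOL for 69.0%. The hybrid percentile lay above both parents at 562 of the 1684 (33.4%), between them at 965 (57.3%) and below both at 157 (9.32%).

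The hybrid's ranking of shared hotspots was closer to that of MOL than to that of PWD. Across the 1684 hotspots found, Spearman's rho with the hybrid was 0.61 for MOL and 0.44 for PWD. Between the parents, rho was 0.12 across all 1750 shared hotspots. For hotspots of a single parent it was 0.56 for MOL-only and 0.34 for PWD-only. These are descriptions across hotspots of the same libraries, which are not independent replicates. Divided at the median of each parental list, hotspots strong in both parents had a median hybrid percentile of 85.4, and those weak in both one of 39.1. Hotspots strong in MOL alone stood at 74.2 and those strong in PWD alone at 63.3. Recovery was 98.4% (564 of 573) where both were strong and 88.3% (316 of 358, interval 84.5 to 91.4) where both were weak. It was 99.0% for hotspots strong in PWD alone and 97.0% for those strong in MOL alone.

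**Figure D2:**
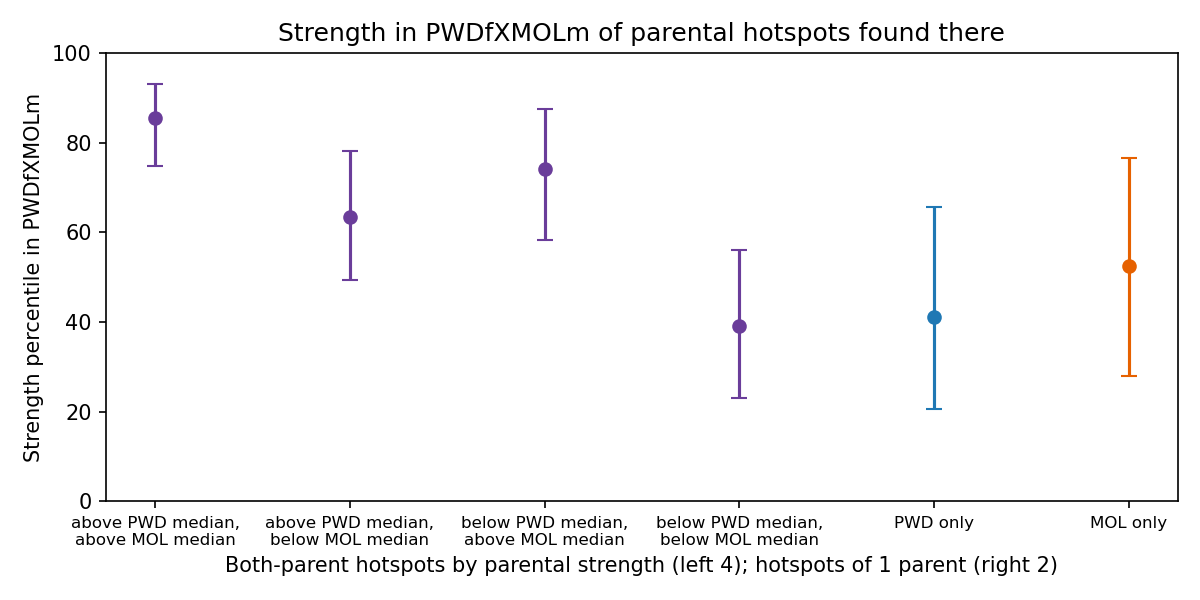
Hybrid strength percentile of the shared hotspots found in PWDfXMOLm, by strength above or below the median of the PWD and the MOL list (left), and of found PWD-only and MOL-only hotspots (right). Points are medians over hotspots and bars span the quartiles; hotspots strong in both parents have a median of 85.4 and those weak in both of 39.1.

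Matched centres of the hybrid and its parents lay close together. The median distance was 74 bp between PWD and MOL, 56 bp between the hybrid and PWD and 64 bp between the hybrid and MOL. Of the shared hotspots, 640 had parental centres under 50 bp apart, and 79 lay 300 to 400 bp apart, just inside the limit. Of these 79 the hybrid had 72 (91.1%), and of the 35 PWD hotspots with a MOL centre 400 to 500 bp away it had 27 (77.1%). Of the 66 shared hotspots not found, 19 (28.8%) still overlapped a hybrid hotspot. Such overlap was seen at 271 of 7389 PWD-only (3.67%) and 272 of 6663 MOL-only hotspots (4.08%) that were not found.

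The same hotspots were then followed into the crosses that have only 1 of these parents, which the definition of the classes did not use. In the 5 other crosses with PWD, the shared hotspots were found at 48.6% in B6fXPWDm, 30.6% in PWDfX13Rm, 59.4% in PWDfXB6m, 57.8% in PWDfXC3Hm and 45.8% in PWDfXCASTm. The PWD-only hotspots were found there at 32.3%, 16.7%, 44.2%, 41.7% and 36.6%, in the same order. In the 5 other crosses with MOL, the shared hotspots were found at 42.7% in B6fXMOLm, 52.3% in C3HfXMOLm, 41.3% in CASTfXMOLm, 38.1% in MOLfX13Rm and 53.6% in MOLfXB6m. The MOL-only hotspots were found there at 38.8%, 49.4%, 28.4%, 35.3% and 51.2%. Shared hotspots were thus above single-parent hotspots in 10 of 10 crosses, but far below their 96.2% in PWDfXMOLm.

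The mean difference over the 10 crosses was 9.56 ± 6.01 percentage points (SD, n = 10; two-sided exact sign-flip permutation test, p = 0.00195, the smallest that 10 crosses allow). It was 4.72 ± 3.95 points when single-parent hotspots were weighted to the strengths of the shared ones (10 of 10 crosses, exact permutation p = 0.00195). The test takes the 10 crosses as independent, although many of them have a parental strain in common. The difference averaged 14.1 points in the PWD crosses and 4.98 points in the MOL crosses, 9.16 points apart (two-sided exact permutation test, p = 0.0159, where the smallest possible is 0.00794). Without CASTfXMOLm the MOL crosses averaged 2.99 points. At matched strengths the PWD and MOL crosses were 3.62 points apart, and the exact permutation test did not pass (p = 0.167). That call rested on CASTfXMOLm, at 11.1 points against 0.326 to 1.75 in the other 4 MOL crosses and 2.62 to 8.80 in the PWD crosses. Without it the crosses were 5.66 points apart and did not overlap (exact permutation p = 0.0159, where the smallest possible is 0.00794), in 1 of 10 such tests that each left out a cross. Adjusted by Benjamini-Hochberg over the 4 tests on all 10 crosses, the p-values were 0.00391, 0.00391, 0.0212 and 0.167. The 10 cross lists held 11968 to 18270 autosomal hotspots, and recovery can depend on that length. In the MOL list, 8.86% of shared and 1.75% of MOL-only hotspots lay at hotspots of inbred CAST, and in the PWD list 9.20% of shared and 12.3% of PWD-only hotspots. The part of this in the crosses with CAST was not tested.

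As a background of matching, the 8 crosses with neither strain had 0.571% to 8.34% of shared, 0.528% to 10.9% of PWD-only and 0.475% to 1.52% of MOL-only hotspots. The high values belonged to crosses with CAST, and without those crosses the ranges were 0.571% to 0.971%, 0.528% to 1.07% and 0.475% to 0.958%.

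**Figure D3:**
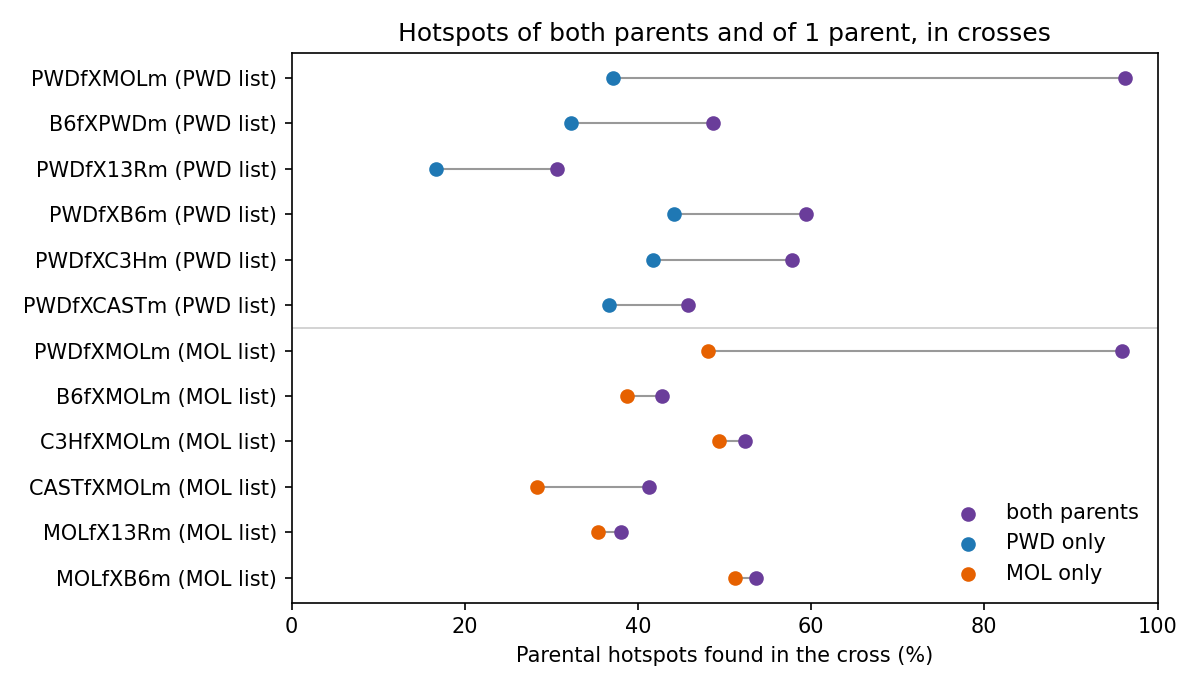
Percent of shared and of single-parent hotspots (x axis) found in PWDfXMOLm and in the 10 other crosses with PWD or MOL (y axis, with the parental list counted), 1 library each and no error bars. Shared hotspots lie above single-parent hotspots in every cross plotted, by the widest margin in PWDfXMOLm.

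Each cross was also compared with its own parents. Hotspots shared by the parents were found more often than hotspots of either parent alone in 19 of 19 crosses. PWDfXMOLm had 96.2% against 37.1% and 48.1%. The parents of 3 other crosses shared over 1000 hotspots. PWDfXCASTm, with 1603 shared hotspots, had 97.9% against 29.7% and 70.1%. The reciprocal crosses of B6 and C3H, with 4575, had 94.8% against 30.5% and 43.5% in B6fXC3Hm and 99.2% against 59.3% and 46.7% in C3HfXB6m. Over all crosses the shared recovery ran from 62.5% in B6fXMOLm to 99.2% in C3HfXB6m. The 15 crosses besides these 3 and PWDfXMOLm had 92 (PWDfX13Rm) to 380 (CASTfXMOLm) shared hotspots to count.

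MOL supplied more of the hybrid's hotspots than PWD. Of the 14912 hybrid hotspots, 1702 lay at hotspots of both parents (11.4%), 4344 at a PWD hotspot alone (29.1%) and 6149 at a MOL hotspot alone (41.2%). A further 172 matched only a knockout hotspot (1.15%), and 2545 matched no hotspot of the 3 lists (17.1%). Of the hotspots with 1 parent, 58.6% were of MOL (57.7 to 59.5), and these held 64.5% of the single-parent strength, although MOL offered 52.2% of the single-parent hotspots in the parental lists. By strength, hotspots at both parents held 16.4% of the hybrid total, PWD-only 23.6%, MOL-only 42.8%, knockout sites alone 0.455% and the rest 16.7%.

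The makeup changed with strength. From the weakest to the strongest hybrid decile, hotspots at both parents went from 2.21% to 22.5%, MOL-only from 35.6% to 44.0%, PWD-only from 33.7% to 16.0% and knockout sites alone from 7.44% to 0.201%. Among the strongest 100 hotspots of the hybrid, 20 lay at both parents, 8 at PWD alone, 43 at MOL alone and 29 at no listed site, with none at a knockout site alone. With only the strongest 5000 hotspots of each list, MOL's part of the single-parent hotspots was 65.9%.

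**Figure D4:**
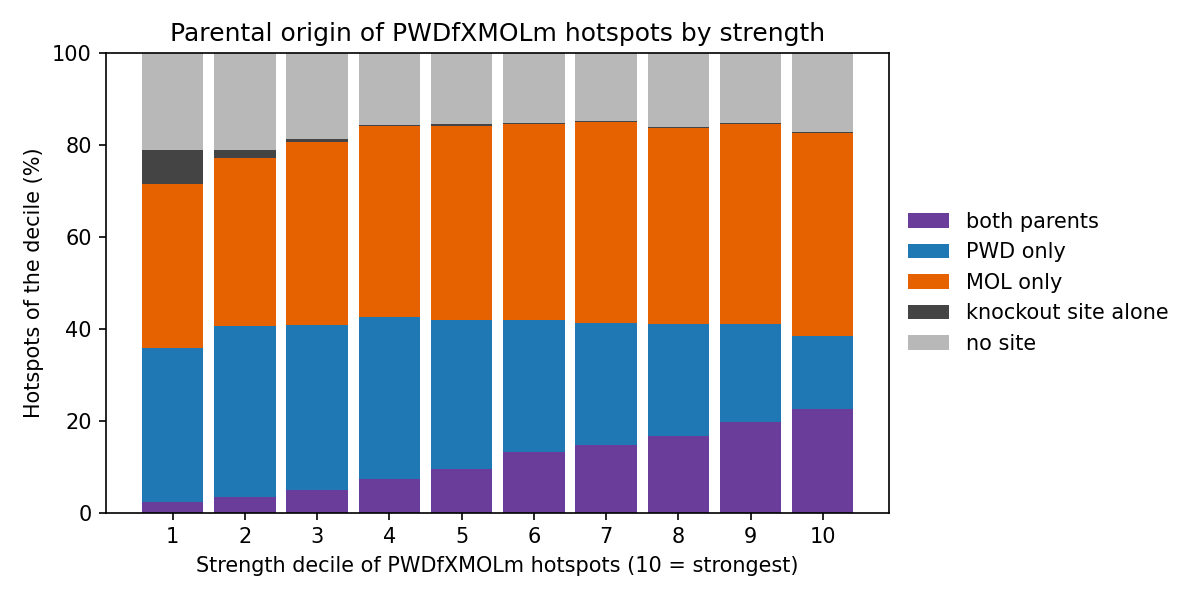
Makeup of the PWDfXMOLm autosomal hotspots (y axis, percent of the decile, stacked bars) in 10 strength deciles of the hybrid list (x axis, 1 is the weakest), by class: both parents, PWD only, MOL only, knockout site alone and no site. The share at both parents goes from 2.21% to 22.5% and that of PWD-only hotspots from 33.7% to 16.0%.

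The strongest hybrid hotspots of each class lay at the following genes. At both parents, 2 lay inside Ctif, a translation initiation factor of the cap-binding complex, at ranks 8 (chr18:75438090-75442103) and 9 (chr18:75465307-75469390). The first ranked 5577 in PWD and 9944 in MOL, the second 234 and 3264, so both stood much higher in the hybrid list than in either parent. The hotspot inside Btaf1, a regulator of the TATA-binding protein, was at rank 12 (chr19:36955779-36959246) and ranked 147 in both parents. The hotspot nearest to Sulf1, 337789 bp away, was at rank 16 in the hybrid, 19 in PWD and 10 in MOL, and was found in all 5 other PWD and all 5 other MOL crosses. Of the PWD-only hotspots, the first lay inside Atl3, a GTPase of the endoplasmic reticulum, at hybrid rank 34 and PWD rank 7 (chr19:7511510-7516907). The strongest PWD hotspot of all, inside Klf5, a transcription factor of epithelia (chr14:99306494-99309871), was at hybrid rank 65. Of the MOL-only hotspots, the first was 142543 bp from Ins1, an insulin gene, at hybrid rank 2 and MOL rank 6598 (chr19:52405162-52409955). The third in rank of the hybrid, inside the dynactin subunit gene Dctn4 (chr18:60554120-60558709), ranked 4168 in MOL. It was found in none of the other crosses with MOL, nor was that inside Slc14a2, a urea transporter, at hybrid rank 6 and MOL rank 12435.

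The strongest hybrid hotspot of all lay at no listed site, 14232 bp from Gda, the guanine deaminase gene (chr19:21374579-21379572), and was found in 1 of the other MOL crosses and in none with PWD. The hotspot inside Ganab, a glucosidase of glycoprotein folding, at rank 4 (chr19:8905925-8909994) was found in all 5 other PWD crosses and in none with MOL. That 1011001 bp from Ncam2, a neural cell adhesion gene, at rank 5 (chr16:80187589-80191804) was found in all 5 other MOL crosses and in none with PWD. At a knockout site alone, the strongest was 54666 bp from Snx13, at hybrid rank 394 and knockout rank 26462. It was found in all 5 other PWD crosses.

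Hotspots at neither parental list's hotspots numbered 2717, or 18.2% of the hybrid (17.6 to 18.8), with a median hybrid percentile of 42.9. Of these, 1009 (37.1%) were found in other crosses with PWD and not with MOL, 586 (21.6%) in other crosses with MOL and not with PWD, 335 (12.3%) in both kinds and 787 (29.0%) in neither kind. In the 8 crosses with neither strain, 11.1% of the 2717 were found. Of the other hybrid hotspots, those crosses had 10.6% at both parents, 16.5% at PWD only and 3.66% at MOL only. Any of the other PWD crosses had 71.4%, 87.6% and 10.5% of these classes, in the same order. For any of the other MOL crosses the shares were 66.6%, 20.5% and 88.0%. The 335 found in both kinds held 194 that lay at CAST hotspots (57.9%), against 8.17% over all 2717. Each kind includes a cross with CAST, PWDfXCASTm and CASTfXMOLm, so a CAST hotspot can enter this group through CAST alone. Of the 335, 245 were also found in the crosses with neither strain, some of which have CAST as a parent. Those found in no PWD or MOL cross were the weakest and narrowest, with a median percentile of 25.4 and a median width of 1474 bp, against 56.9 and 2079 bp for those in MOL crosses alone. The 2717 depend on the matching rule: with reciprocal overlap of at least 50% they became 31.5% of the hybrid, and among the strongest 5000 hotspots of each list 31.6%.

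Found and lost single-parent hotspots lay at similar distances from hotspots of the other parent, and recovery varied between chromosomes. The median distance to the nearest MOL hotspot was 49168 bp for PWD-only hotspots that were found and 53538 bp for those that were not. For MOL-only hotspots the distances to PWD were 54689 and 56861 bp. A hotspot of the other parent lay within 5000 bp of 7.40% of found and 6.79% of lost PWD-only hotspots, and of 6.46% and 6.30% of MOL-only hotspots. By chromosome, recovery ran from 28.5% (chromosome 5) to 49.4% (chromosome 9) for PWD-only and from 43.4% (chromosome 14) to 52.8% (chromosome 7) for MOL-only hotspots. Shared hotspots lay between 88.8% on chromosome 10 and 100% on chromosome 9. Single-parent hotspots that were also CAST hotspots were found more often, at 47.2% (681 of 1442) against 35.7% for PWD-only and at 64.9% (146 of 225) against 47.8% for MOL-only hotspots. Those at CAST hotspots were also stronger, with a median percentile of 60.1 against 46.7 in PWD and of 52.9 against 49.7 in MOL. Shared hotspots at CAST hotspots were found at 95.7%, against 96.3% elsewhere.

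Some of the strongest parental hotspots had no match in the hybrid list. The strongest PWD-only hotspot not found, at PWD rank 31, lay inside Prdm9 itself, 989 bp from an end of the gene (chr17:15562242-15564529). It was found in 1 of the 5 other PWD crosses, and the nearest hybrid centre was 36053 bp away. The next, at PWD rank 81, lay inside Mlh3, a subunit of the nuclease that resolves crossovers (chr12:85264911-85270380), and was found in 0 of the 5. The third, 143272 bp from Bbs9, had a hybrid centre 561 bp away and was found in all 5. The strongest MOL-only hotspot not found, at MOL rank 6, lay inside the kinase gene Map4k3 (chr17:80619497-80628406), was 8910 bp wide and had a hybrid centre 729 bp away. The next lay 8943 bp from P4ha2, a collagen prolyl hydroxylase (MOL rank 41), and inside Cacnb2, a calcium channel subunit (MOL rank 91), with the nearest hybrid centres 314488 and 41323 bp away. Ranked by their strength in PWD, the strongest shared hotspots not found lay inside Arl5b, Tanc2 and Mad1l1, a spindle checkpoint gene, at PWD ranks 2480, 3393 and 3415. At Tanc2 a hybrid centre was 423 bp away. There, at Map4k3 and at the hotspot nearest to Bbs9, the hybrid centre lay inside the parental hotspot but beyond the 400 bp limit for a match. Counted from the MOL list, 1 shared hotspot among the strongest 1000 was not found.

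Few knockout hotspots were found in the hybrid, and strong knockout hotspots were found far more often than weak ones. The hybrid matched 358 of the 29991 knockout hotspots, 1.19% of that list, and 2.40% of its own hotspots lay at them. The same share was 1.76% in PWD, 1.09% in MOL and 0.708% to 1.61% in the 8 crosses with neither strain. It was 0.633% to 5.93% in the other PWD crosses and 0.737% to 1.32% in the other MOL crosses. The matches to the knockout were looser than those to the parents, with a median distance of 160 bp between centres. They numbered 62 under 50 bp and 72 at 300 to 400 bp, and a further 49 pairs lay just outside the limit at 400 to 500 bp. How many of the 358 are matches by proximity alone was not tested. The hotspots concerned were weak, with a median hybrid percentile of 12.5, and of 5.37 for the 172 at a knockout site alone. Of the strongest 100 knockout hotspots the hybrid had 50, PWD 38 and MOL 0. Of the strongest 1000 the hybrid had 152, PWD 94 and MOL 6. Inbred B6 was close to PWD, with 39 of the strongest 100 and 91 of the strongest 1000. The hybrid had 71 of the 400 at ranks 101 to 500 (17.8%) and 0.535% of those beyond rank 10000.

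The knockout sites of the hybrid were not all those of PWD. Of the 38 in PWD among the strongest 100, the hybrid had 31, and of the 62 that lay in neither parent it had 19 (30.6%). Among the strongest 1000 it had 58 of the 94 and 91 of the 903 in neither parent (10.1%). Other crosses with PWD ranged widely: of the strongest 1000, PWDfXB6m had 460, PWDfXC3Hm 145, B6fXPWDm 106, and of the strongest 100, 80, 39 and 36. PWDfX13Rm had 0 and PWDfXCASTm 3 of the strongest 100. Of the other MOL crosses, MOLfXB6m had the most of the strongest 1000, at 21. The 8 crosses with neither strain had 4 to 74 of the strongest 1000. The 172 hybrid hotspots at a knockout site alone were found in PWDfXB6m at 122 (70.9%) and in PWDfXC3Hm at 50 (29.1%). B6fXPWDm had 37 of them (21.5%) and MOLfXB6m 9 (5.23%). Of the hybrid hotspots at a parental hotspot, these crosses had 40.3%, 38.8%, 33.8% and 51.0%, in the same order. Among these crosses, only PWDfXB6m had a larger share of the 172 than of the parental hotspots. Lists with neither strain went both ways. C3HfXB6m had 6.40% of the 172 against 1.05% of the parental hotspots, and inbred B6 7.56% against 1.16%. CASTfXB6m had 1.16% against 7.31%. How many knockout sites match moved with the rule: 1.44% of hybrid hotspots with centres under 200 bp apart, 4.16% under 1000 bp, 7.72% with any overlap of the intervals, and 0.04% among the strongest 5000 of each list.

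**Figure D5:**
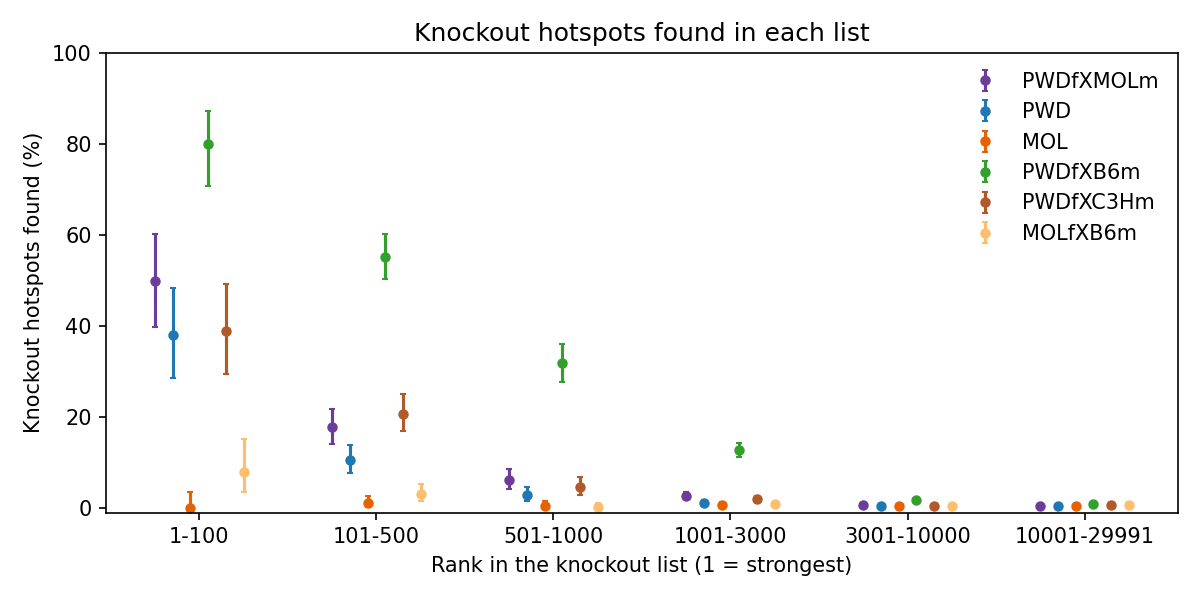
Percent of knockout hotspots (y axis, with 95% Clopper-Pearson intervals) found in PWDfXMOLm, its parents and 3 other crosses, by rank in the knockout list (x axis, 1 is the strongest). Of the strongest 100, PWDfXMOLm has 50, PWD 38, MOL 0 and PWDfXB6m 80, and all 6 lists fall below 1% beyond rank 10000.

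Of the 10 strongest knockout hotspots, the hybrid had 6. Those inside Rsbn1l, St7, Snx13 and Nudcd2 were also PWD hotspots. That inside Cenpl and that 16411 bp from Chd2, a chromatin remodeller gene, were in neither parent. The hotspots inside Rsbn1l (knockout rank 4) and St7 (rank 5) stood at hybrid ranks 9981 and 7704. The other 4 stood between ranks 13532 and 14862, in the weakest decile of the hybrid. The hotspots inside Muc3, Enpp6 and Zkscan16, at knockout ranks 1 to 3, and that at Kbtbd8 were not found in the hybrid, in PWD or in MOL.

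Hybrid hotspots at knockout sites lay at gene ends far more often than those of the other classes. Of the hybrid's autosomal hotspots, 4.51% were centred no more than 1000 bp from the start or end of a protein-coding gene; the gene table gives no strand, so both kinds of end were counted. The share was 52.2% (187 of 358) for hotspots at any knockout site and 64.0% (110 of 172) for those at a knockout site alone. It was 3.11% for hotspots at both parents, 4.37% for PWD-only, 3.33% for MOL-only and 4.48% for those at no listed site. Within the knockout list, 52.5% of the hotspots found in the hybrid lay at gene ends, against 32.8% of those not found. Among the strongest 1000 knockout hotspots the shares were 78.3% and 70.6%. With transcription starts in place of gene ends, the shares at knockout sites in the hybrid were 54.3% for any and 66.3% for those alone.

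Most genes of meiosis and most ribosomal protein genes had a knockout hotspot at an end, and few had a hybrid hotspot. Over all 20665 autosomal protein-coding genes, 743 (3.60%) had one, and 51.6% had a knockout hotspot. Of 49 meiotic prophase genes 5 had a hybrid hotspot (10.2%, interval 3.40 to 22.2): Tex15 and Rec8, a cohesin subunit, Hells, a chromatin remodeller, Mybl1, a transcription factor of male meiosis, and Terb1, which ties telomeres to the nuclear envelope. The hotspots at Tex15 and Rec8 were at both parents and stood at hybrid ranks 2321 and 3885, and that at Hells was the one at a knockout site, at rank 10106. The knockout list had a hotspot at 43 of the 49. Of 76 ribosomal protein genes, 4 had a hybrid hotspot (5.26%, interval 1.45 to 12.9), at Rpl31, Rpl38, Rpl34 and Rpl5, and 60 had a knockout hotspot. The hotspot at Rpl34 lay at a knockout site alone, at rank 14718. Of 1100 olfactory receptor genes, 16 had a hybrid hotspot (1.45%), the strongest at Olfr1223 (rank 1797), and none of these lay at a knockout site.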

How the data were processed

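The series gives 1 DMC1 library of testis for each of 26 genotypes, and 5 input samples among its 31 samples that were not used here. Each deposited file lists the hotspots the authors called in 1 library, with chromosome, start, end and a strength score. The submitters' processing notes name the build mm10 and, among the tools, CASAVA 1.8 and MACS2 2.0.10. The normalization of the deposited score, the filters and any pooling of animals were not given in the sources used here. Scores below 0 occurred for 2 hotspots of PWDfXMOLm, 10 of PWD, 10 of MOL and 9 of the knockout. The score was used within a list only, as a rank, percentile, decile or share of summed strength. Read depth is unknown, so the length of a list says nothing of how many breaks there were.

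Groups were taken from the strain labels. Hotspots were matched by centres under 400 bp apart on the 19 autosomes, with coordinates printed 1-based. Clopper-Pearson intervals (95%) and two-sided exact permutation tests over crosses (threshold 0.05) were computed with Python 3.11.15, numpy 2.4.6, pandas 2.3.3 and scipy 1.17.1, and figures with matplotlib 3.10.9. The matching of hotspots was tested on simulated lists. Genes came from a RefSeq table of GRCm38.p6, and promoters from a RefSeq table that holds none of chromosome 18. The rule for named hotspots took the 5 strongest hybrid hotspots of each class, the 3 strongest not found of each parental class, the 10 strongest of the knockout and up to 5 genes of each list, named by the gene that holds the centre or has the nearest end; the text gives a part of them. The 5 printed promoters are those wholly inside the strongest knockout hotspots that are in neither parent, 3 found in the hybrid and 2 not found. The alternatives were other matching rules, the strongest 5000 hotspots of each list, weighting by strength and other gene windows. Matching on strength, leaving out each cross (also at matched strength), transcription starts and the difference between PWD and MOL crosses were added after the data were seen. The classes, gene lists and tests were chosen with earlier results of these data known.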

Additional observations from a re-analysis of the deposited data

Results flagged for a closer look

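Values of single crosses were compared within the 6 crosses with PWD and the 6 with MOL, in 12 groups of values, and chance sets a cross apart in about 1 in 20 such groups. Among the crosses with PWD, PWDfXB6m stood above the rest by a wide gap in the share of its hotspots at knockout sites, 5.93%, where PWDfXMOLm came next with 2.40%. It also stood apart in the number of the strongest 1000 knockout hotspots, with 460 against 152 in PWDfXMOLm. Among the crosses with MOL, PWDfXMOLm itself stood apart on both measures. It had 2.40% of its hotspots at knockout sites against 1.32% in the next cross, MOLfXB6m, and 152 of the strongest 1000 against 21. Both values lay within the range of the other crosses with PWD, 0.633% to 5.93% and 2 to 460. PWDfXC3Hm had 2.13% and 145, and B6fXPWDm 2.14% and 106. PWDfXMOLm also stood apart in the recovery of hotspots shared by PWD and MOL, counted from the MOL list, at 95.9% against 53.6% in MOLfXB6m. The class was defined from these parental lists and PWDfXMOLm is the one cross with both strains, so this flag is no separate result. Counted from the PWD list, recovery was 96.2% against 59.4% in PWDfXB6m and was not flagged.

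The excess of shared over single-parent recovery differed between the other crosses with PWD and those with MOL, by 9.16 percentage points (two-sided exact permutation test over 5 and 5 crosses, p = 0.0159). Leaving out each cross in turn, the difference lay between 8.51 and 11.1 points, with exact permutation p from 0.0159 to 0.0317. At matched parental strength it was 3.62 points (exact permutation p = 0.167). Leaving out each cross there gave 2.98 to 5.66 points, and the exact permutation p was 0.0159 without CASTfXMOLm and 0.0952 to 0.278 without each of the others.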

How the results depend on the processing

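Libraries could not be paired because each genotype has 1 library and the labels give no replicate numbers. The test over 10 crosses used the difference between hotspot classes within each cross. The excess of shared over single-parent recovery over 10 crosses was positive and passed under all alternatives run, and lay between 8.81 and 10.4 percentage points (exact permutation p = 0.00391) when each cross was left out. The other values have no test. With centres under 200 bp apart, recovery was 93.6% for shared, 34.4% for PWD-only and 43.7% for MOL-only hotspots, and 24.8% of hybrid hotspots lay at neither parent. Under 1000 bp, MOL-only recovery was 49.1% and the share at neither parent 16.5%. With any overlap the 4 values were 94.3%, 38.1%, 49.2% and 15.6%, with reciprocal overlap of 50% they were 93.9%, 32.3%, 39.0% and 31.5%, among the strongest 5000 hotspots 95.1%, 22.7%, 43.8% and 31.6%, and by summed strength 98.4%, 58.0%, 72.9% and 17.2%. MOL's part of single-parent hotspots was 57.0% with reciprocal overlap, 65.9% among the strongest 5000 and 64.5% by strength. Hybrid hotspots at knockout sites and knockout hotspots found came to 1.44% and 0.714% under 200 bp, 4.16% and 2.05% under 1000 bp, 7.72% and 3.84% with any overlap, 1.78% and 0.884% with reciprocal overlap, 0.04% and 0.04% among the strongest 5000, and 1.27% and 3.71% by strength. The share of hybrid knockout sites at gene ends was 34.9% within 500 bp and 58.9% within 2500 bp. In every setting run, shared hotspots were found most often and MOL-only hotspots more often than PWD-only. Unknown read depth limits all shares, since a hotspot not listed may lie under the calling threshold.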

Other observations

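Chromosomes 16 to 19 held many of the strongest hybrid hotspots, a group of chromosomes chosen after their values were seen. They held 49 of the strongest 100 hotspots of PWDfXMOLm, with 16.3% of its autosomal hotspots and 18.7% of its strength. The parents had 17 (PWD) and 24 (MOL) of their strongest 100 there, and the knockout 12. The other crosses with PWD had 16 to 43 and those with MOL 19 to 45. Of the 49, 23 lay at MOL-only, 8 at both-parent, 5 at PWD-only hotspots and 13 at no listed site. Of the hybrid hotspots at a knockout site alone, 35.5% lay on these chromosomes.

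On the X chromosome, which a male F1 inherits from the PWD mother, the hybrid had 850 hotspots. Those shared by the parents were found at 219 of 243 (90.1%), PWD-only hotspots at 264 of 747 (35.3%) and MOL-only hotspots at 309 of 813 (38.0%). Of the hybrid's single-parent X hotspots, 53.7% were at MOL sites. On X 7.53% lay at neither parent (64 of 850), against 18.2% on the autosomes. Of the X hotspots 18.2% lay at knockout sites (155 of 850), against 2.40% on the autosomes, 12.2% on X in PWD and 12.0% on X in MOL. In the 18 other crosses this share ran from 0.567% in C3HfXCASTm to 21.2% in PWDfXB6m, and it was above the cross's own autosomes in 16 of them. On the Y chromosome, inherited from the MOL father, 0 of 43 PWD-only and 47 of 122 MOL-only hotspots (38.5%) were found.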
